A study of Mus musculus with 13 samples.

Results

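Expression of the leukocyte β2 integrins and of the genes that switch them on was followed in primary bone marrow neutrophils of wild-type mice, after RNase A outside the cells or a mock treatment. The 10 genes were taken by name, 10 of the 55536 genes in the tables: the α chains Itgal, Itgam, Itgax and Itgad, the β chain Itgb2, its relative Itgb2l, the activators Fermt3, Tln1 and Rap1b, and the integrin-associated surface protein Cd47. All 10 had Ensembl identifiers with a matching symbol, and all 10 passed the filter on low counts, as did 14184 genes in all. The exRNaseA group (n = 2 libraries) was given RNase A outside the cells in HBSS buffer, for 10 min at 37 °C, and the mock group (n = 2 libraries) was labelled as mock treated, although its protocol text also names the enzyme. Genotype was wild type in both groups, the cells were freshly isolated, and poly(A)-selected RNA was sequenced. No source used here gives the age, the sex or the number of mice, or says whether mice were pooled. The series calls the libraries biological replicates, and nothing used here ties them to separate animals. Each p-value therefore compares the groups over these 4 libraries alone. They held 20661683 and 22870322 expected counts in the exRNaseA group and 23722494 and 20798960 in the mock group. Small RNA libraries of primary neutrophils and of undifferentiated and differentiated HOXB8 cells enter only the section on results flagged for a closer look. These were input RNA, RNA captured on wheat germ agglutinin or biotin-purified RNA, the last also with PNGase digestion in differentiated HOXB8 cells.

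β2 integrins are surface receptors of leukocytes built from 1 α and 1 β chain. Itgal encodes the α chain of LFA-1 (CD11a), Itgam that of Mac-1 or complement receptor 3 (CD11b), Itgax CD11c and Itgad CD11d, and each pairs with the product of Itgb2 (CD18). On resting neutrophils they are held in a bent, low-affinity form. Chemokine and selectin signals load the small GTPase Rap1 with GTP, talin-1 and kindlin-3 (Fermt3) then bind the tail of the β chain, and the receptor extends to hold the cell to the vessel wall. Loss of Itgb2 or of Fermt3 causes leukocyte adhesion deficiency in humans. Itgb2l (pactolus) is a mouse protein that resembles the β2 chain and is known from neutrophils.

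RefSeq promoters (GRCm38.p6, the assembly of mm10) were at hand for 7 of the 10 genes. Shown here, 5′ to 3′ on the strand of the gene with CG pairs in capitals, are the 300 bases around the start of an α chain and of pactolus, both restricted to certain leukocytes, and of Rap1b, a gene of most cells.
Itgam, chr7:128062390-128062689, + strand: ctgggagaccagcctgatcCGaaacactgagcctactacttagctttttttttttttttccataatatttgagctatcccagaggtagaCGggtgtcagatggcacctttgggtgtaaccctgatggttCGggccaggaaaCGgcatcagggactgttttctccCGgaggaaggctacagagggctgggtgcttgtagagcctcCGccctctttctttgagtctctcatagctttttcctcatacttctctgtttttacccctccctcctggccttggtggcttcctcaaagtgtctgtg
Itgb2l, chr16:96443565-96443864, - strand: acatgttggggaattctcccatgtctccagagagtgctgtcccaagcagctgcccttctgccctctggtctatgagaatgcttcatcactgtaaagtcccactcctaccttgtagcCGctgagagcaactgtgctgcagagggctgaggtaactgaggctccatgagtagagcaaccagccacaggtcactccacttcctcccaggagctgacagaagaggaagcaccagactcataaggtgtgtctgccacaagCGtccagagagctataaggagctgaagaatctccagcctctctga
Rap1b, chr10:117845925-117846224, - strand: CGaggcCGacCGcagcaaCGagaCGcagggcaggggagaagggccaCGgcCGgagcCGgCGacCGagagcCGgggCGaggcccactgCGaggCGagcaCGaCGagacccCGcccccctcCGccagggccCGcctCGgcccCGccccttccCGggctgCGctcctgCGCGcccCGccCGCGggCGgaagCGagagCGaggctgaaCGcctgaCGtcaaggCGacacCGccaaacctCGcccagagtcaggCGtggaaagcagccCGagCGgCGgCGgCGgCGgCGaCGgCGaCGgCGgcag
The window held 6 CG pairs for Itgam, 2 for Itgb2l and 48 for Rap1b, against a median of 7 over 32851 promoters of the same length. Itgax had 5, Fermt3 3 and Tln1 16, and the 2 overlapping windows of Cd47 had 35 and 36. The Cd47 windows, chr16:49855404-49855703 and chr16:49855411-49855710 on the + strand, lie inside the gene span used here, which opens at 49851328. At least 48 CG pairs were present in 1.22% of all promoters, and 2 or fewer in 23.3%. The letters GAGGAA, a core that the myeloid factor PU.1 can bind, were searched on both strands and stood in 28.3% of all promoters. They occurred 3 times in the Itgam window, 2 times in that of Itgb2l and once in that of Tln1, and were not found in the windows of Itgax, Fermt3, Rap1b and Cd47.

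The β chain and the CD11b chain were the most abundant of the 10 messages. Levels are given in TPM, a length-normalised share of all transcripts, which divides by transcript length so that genes can be set side by side. Itgb2 (ENSMUSG00000000290.13, chr10:77530329-77565708, mm10) stood at 732.76 and 748.2 TPM in exRNaseA libraries and at 740.46 and 726.66 TPM in mock libraries. Itgam (ENSMUSG00000030786.18, chr7:128062640-128118491) stood at 696.32 and 696.81 TPM in exRNaseA and at 699.5 and 698.93 TPM in mock libraries. The 4 libraries lay close together for both genes, which took places 134 and 152 among all genes by mean TPM.

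The other α chains were lower. Itgal (ENSMUSG00000030830.18, chr7:127296139-127335137) stood at 124.89 and 126.36 TPM in exRNaseA and at 123.54 and 124.99 TPM in mock libraries. Itgax (ENSMUSG00000030789.9, chr7:128129526-128150657) stood at 9.04 and 10.75 TPM in exRNaseA and at 8.25 and 10.8 TPM in mock libraries. Itgad (ENSMUSG00000070369.13, chr7:128173933-128205504), a chain known mainly from macrophages, stood at 0.4 and 0.95 TPM in exRNaseA and at 0.38 and 0.4 TPM in mock libraries. The groups overlapped for all 3 genes on the TPM scale. The high Itgad value rested on 35.09 expected counts and a transcript length that RSEM set at 2343 effective bases in exRNaseA replicate 2. The other exRNaseA library had 21.06 counts and 3647 bases, and the mock libraries 23.25 and 21.18 counts and 3649 bases each.

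Pactolus was a major message of these cells. Itgb2l (ENSMUSG00000000157.16, chr16:96422288-96443664) stood at 306.19 and 315.26 TPM in exRNaseA and at 315.27 and 321.67 TPM in mock libraries. Its ratio to Itgb2 was 0.420 ± 0.002 in exRNaseA and 0.434 ± 0.012 in mock libraries (mean ± SD, n = 2 each; exact two-sided permutation p = 0.333, the smallest that 2 against 2 libraries can give). Expected counts of Itgb2l and Itgb2 were whole numbers in all 4 libraries, while RSEM gives fractions where it divides reads between genes.

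Among the activators, the small GTPase Rap1b (ENSMUSG00000052681.8, chr10:117814597-117845974) stood at 457.1 and 469.35 TPM in exRNaseA and at 466.54 and 455.4 TPM in mock libraries. Tln1 (ENSMUSG00000028465.16, chr4:43531513-43562583), which encodes talin-1, stood at 337.7 and 396.17 TPM in exRNaseA and at 354.15 and 378.06 TPM in mock libraries. Fermt3 (ENSMUSG00000024965.9, chr19:6998958-7019469), which encodes kindlin-3, stood at 110.68 and 115.43 TPM in exRNaseA and at 113.98 and 107.61 TPM in mock libraries. Cd47 (ENSMUSG00000055447.19, chr16:49851328-49912503), the receptor of thrombospondin-1 and the ligand of the phagocyte receptor SIRPα, stood at 234.93 and 244.73 TPM in exRNaseA and at 225.83 and 234.26 TPM in mock libraries. The groups overlapped for Rap1b, Tln1 and Fermt3, while both exRNaseA libraries were above both mock libraries for Cd47. The wide range of Tln1 in exRNaseA libraries went with its effective length, 4404 bases in replicate 1 and 3872 in replicate 2, against 4049 and 3928 bases in mock replicates 1 and 2. CPM are counts scaled to library size with the TMM factor of edgeR, without regard to length. In CPM, Tln1 stood at 1042 and 1056 in exRNaseA and at 1022 and 1053 in mock libraries.

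**Figure D1:**
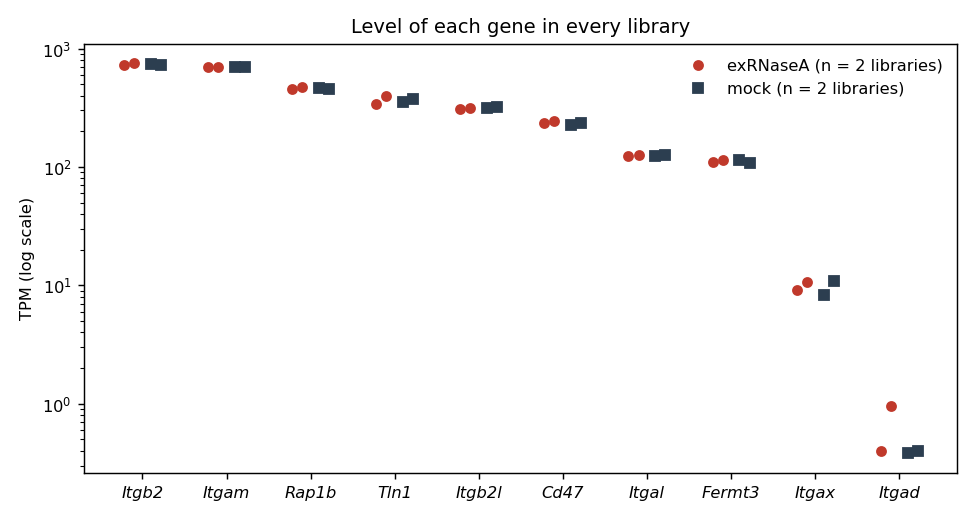
TPM of each gene on a log axis, with 1 point per library for the exRNaseA group (circles) and the mock group (squares), genes in order of level. Itgb2 and Itgam lie near 700 TPM, and Itgax and Itgad stand apart at the low end.

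From high to low the order was Itgb2, Itgam, Rap1b, Tln1, Itgb2l, Cd47, Itgal, Fermt3, Itgax and Itgad. It was the same in each of the 4 libraries, since no neighbours in this order had overlapping ranges. The narrowest gaps were between Itgb2 (lowest 726.66 TPM) and Itgam (highest 699.5), Tln1 (lowest 337.7) and Itgb2l (highest 321.67), and Itgal (lowest 123.54) and Fermt3 (highest 115.43). The ratio of the lower edge to the upper edge was 1.04, 1.05 and 1.07 in these pairs. By the root mean square difference of log2(TPM + 0.1) over the 4 libraries, the tested genes nearest in level to Itgb2 were Cap1 (0.02), Arpc5 (0.02) and Cd53 (0.03). Among those nearest to Itgam were Ptprc (0.02) and Trem1 (0.03).

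CD11b made up most of the α chain message. Itgam held 83.83% and 83.46% of the summed TPM of the 4 α chains in exRNaseA libraries and 84.11% and 83.69% in mock libraries. Itgal held 15.0% and 15.1% in exRNaseA and 14.9% and 15.0% in mock libraries, Itgax between 1.09% and 1.29% in exRNaseA and between 0.992% and 1.29% in mock libraries. Itgad held at most 0.114%. The summed α chains exceeded Itgb2 slightly, by a TPM ratio of 1.12 ± 0.01 in exRNaseA and 1.14 ± 0.02 in mock libraries (mean ± SD, n = 2 each). The exact two-sided permutation p was 0.667 for the Itgam share and 0.667 for the ratio, in a design that cannot go below 0.333. Without division by length the ratio was 1.91 in exRNaseA and 1.94 in mock libraries, where the effective length was 4340 and 4384 bases in exRNaseA and 4380 and 4381 bases in mock libraries for Itgam, and 2602 and 2594 against 2592 and 2606 bases for Itgb2. Message ratios do not give the ratio of the chains as proteins.

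**Figure D2:**
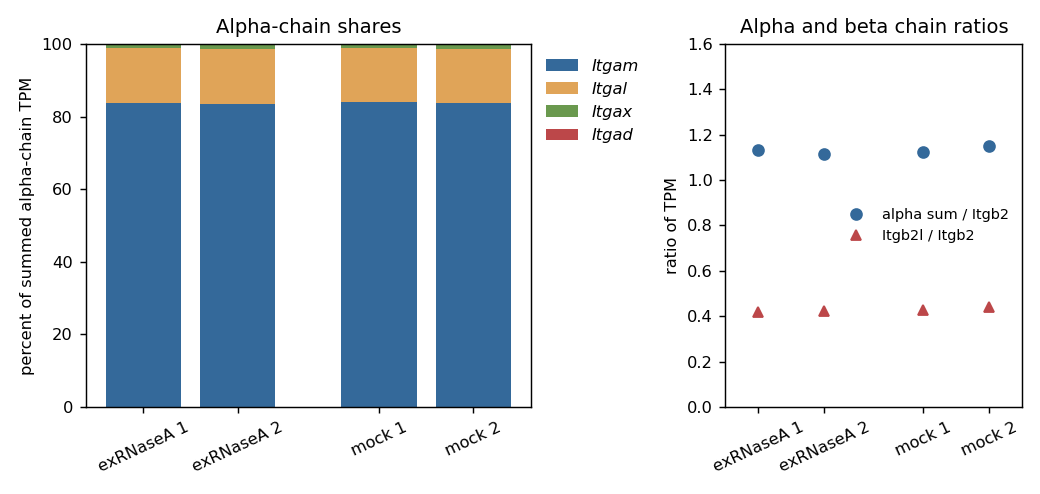
Left, the share of each α chain in the summed α chain TPM of each library, as stacked bars. Right, the TPM ratio of the summed α chains to Itgb2 (circles) and of Itgb2l to Itgb2 (triangles), 1 point per library. Itgam fills between 83.46% and 84.11% of every bar.

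The comparison of the groups asked whether RNase A outside the cells changed these messages inside them. By the quasi-likelihood test of edgeR, with p-values adjusted after Benjamini and Hochberg, 0 of the 10 genes passed (smallest adjusted p = 0.473). Of all 14184 tested genes 13 passed, or 0.0917%, with 0.0212% higher and 0.0705% lower in exRNaseA. DESeq2 called 0 of the 10, against 0.0366% of the genes it tested. At an unadjusted p under 0.05 edgeR gave 3 of the 10, Cd47, Itgb2l and Itgam, against 901 of all tested genes or 6.35%. The median log2 change of the 10 was -0.02, against -0.00 over all tested genes. In bulk RNA, fewer cells of a type and less RNA per cell cannot be told apart. The count of 13 genes was 9 without mock replicate 2, 74 without mock replicate 1, 59 without exRNaseA replicate 1 and 29 without exRNaseA replicate 2.

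Cd47 had the largest shift of the abundant genes. It stood at 403 and 422 CPM in exRNaseA and at 376 and 393 CPM in mock libraries, with both exRNaseA libraries above both mock libraries. The log2 change was 0.10 (SE 0.03, 95% interval 0.04 to 0.16, edgeR adjusted p = 0.473), which is 7.26% higher with an interval of 2.80% to 11.9%. On the TPM scale of limma it was 0.06 (limma adjusted p = 0.85), where the median of all genes was 0.03. It was 0.07 without exRNaseA replicate 2. Its adjusted p ranged from 0.0368 to 1.0 over the alternatives. It passed in 2 of them, without exRNaseA replicate 1 (log2 change 0.13, edgeR adjusted p = 0.0368) and without a filter on low counts (0.10, edgeR adjusted p = 0.0436).

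The β-like chain and CD11b leaned the other way. Itgb2l stood at 508 and 516 CPM in exRNaseA and at 542 and 533 CPM in mock libraries, a log2 change of -0.07 (SE 0.02, interval -0.12 to -0.02, edgeR adjusted p = 0.628). Itgam stood at 2117 and 2102 CPM in exRNaseA and at 2183 and 2171 CPM in mock libraries, a log2 change of -0.05 (SE 0.02, interval -0.09 to -0.00, edgeR adjusted p = 0.751). Both exRNaseA libraries were below both mock libraries for either gene. On the TPM scale of limma the shifts were -0.04 for Itgb2l and -0.01 for Itgam, where the median of all genes was 0.03. In the same libraries the 14 genes listed as neutrophil markers had a median log2 change of -0.05, with 0 called. Of the 14, 10 had an unadjusted p under 0.05 (6.35% of all tested genes), and without overlap 9 were lower and 2 higher in exRNaseA (18.0% and 17.7% of all tested genes). Their summed TPM was 287976 and 274874 in exRNaseA and 286777 and 287646 in mock libraries. Whether this had a part in the values of Itgb2l and Itgam was not tested.

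The remaining genes were closer to 0 or poorly measured. Itgb2 had a log2 change of -0.02 (interval -0.07 to 0.02), Itgal -0.02 (-0.07 to 0.04) and Rap1b -0.02 (-0.07 to 0.02). Tln1 had 0.02 (-0.03 to 0.06) and Fermt3 0.03 (-0.04 to 0.09). The edgeR adjusted p lay between 0.915 and 0.953 for these 5 genes and for Itgax and Itgad. For the 8 genes above 100 TPM the intervals lay between -0.12 and 0.16, which is between 8.05% lower and 11.9% higher. Itgax, at 16.6 and 16.3 CPM in exRNaseA and 16.5 and 17.7 CPM in mock libraries, had -0.06 (-0.24 to 0.13). Itgad had 0.35 (-0.40 to 1.11), so that a doubling was within its interval, and the value was 0.02 without exRNaseA replicate 2. Groups did not overlap in TMM-scaled CPM for 6 of the 10 genes, 2 higher and 4 lower in exRNaseA. The share was 35.7% of all tested genes (17.7% higher and 18.0% lower). The count depends on that scaling: Itgb2 and Itgal were among the 4 lower. With total count scaling their log2 changes were -0.00293 and 0.00259. The sign of Itgb2, Itgal, Itgax, Rap1b and Tln1 turned with the scale: limma on log2(TPM + 0.1) gave 0.01, 0.02, 0.06, 0.01 and -0.00, where the median of all genes was 0.03, against -0.00 in edgeR. Itgb2, Itgal, Rap1b and Tln1 were below that median and Itgax above it. Counts of Itgam, Itgax, Itgad and Tln1 were fractions in every library, so part of their counts may depend on how RSEM divided reads between genes.

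**Figure D3:**
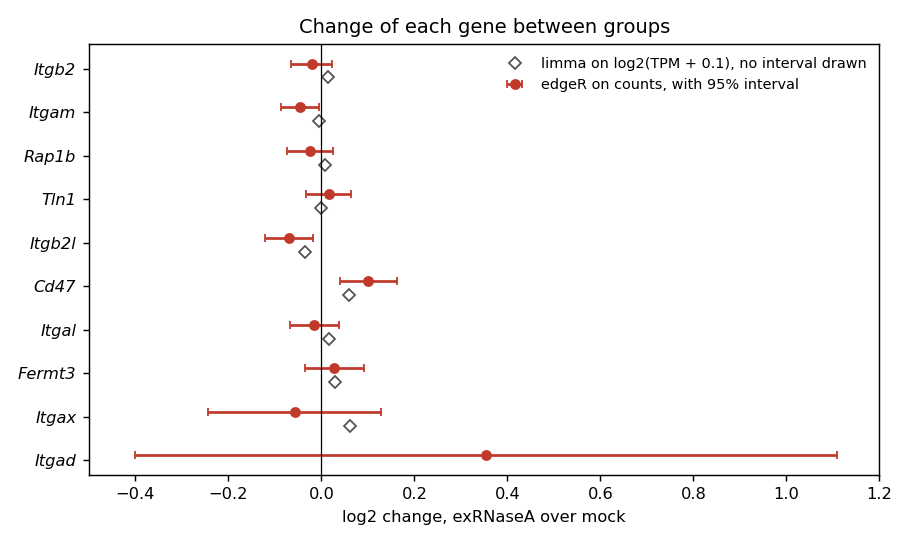
The log2 change of each gene, exRNaseA over mock, from edgeR on counts with its 95% interval (filled circles) and from limma on log2(TPM + 0.1) (open diamonds, drawn without an interval). Itgad was below the level needed for limma and has no diamond. Of the edgeR intervals, those of Itgam, Itgb2l and Cd47 do not reach 0, and none of the 10 genes passed after adjustment.

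**Figure D4:**
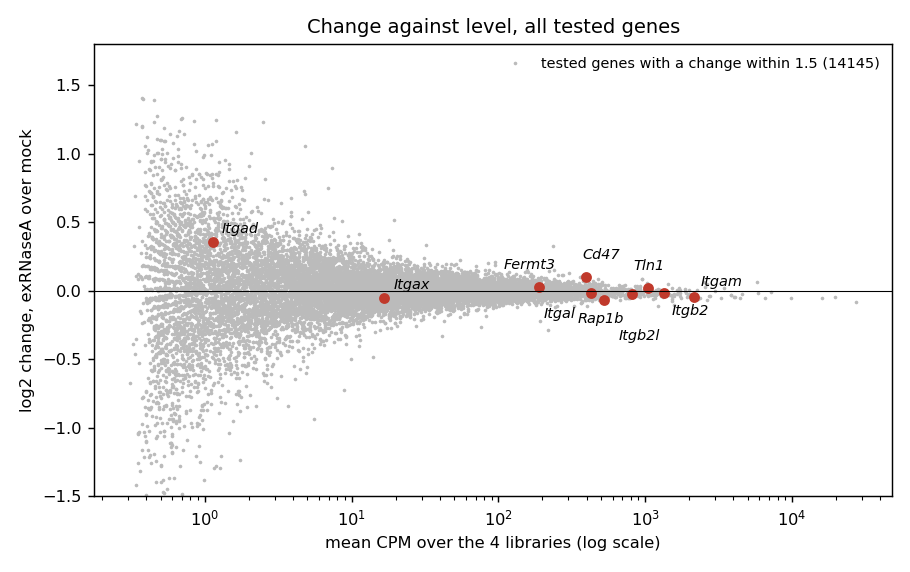
The log2 change, exRNaseA over mock, against the mean CPM over the 4 libraries for tested genes with a change within 1.5 (gray), with the 10 genes in red. The 8 abundant genes lie in the narrow right part of the cloud and Itgad in its wide left part.

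Other integrin chains were below the 8 abundant genes, and several were above Itgax and Itgad. Of 21 such genes 15 were tested, and 0 were called (median log2 change 0.04, 5 of 15 below 0, smallest adjusted p = 0.887, edgeR). The highest were Itga4, the α4 chain of VLA-4, at 61.8 TPM in exRNaseA and 61.1 in mock libraries (means of 2), Itgb1 at 44.0 and 42.0 TPM and Itgb7 at 23.7 and 22.8 TPM. On counts the edgeR log2 change was -0.01 for Itga4, 0.05 for Itgb1 and 0.06 for Itgb7. Summed over the 21 genes these chains held 187.76 and 193.95 TPM in exRNaseA and 182.95 and 185.78 TPM in mock libraries. The 6 β2 family genes alone, Itgb2l included, held 1870 and 1898 TPM in exRNaseA and 1887 and 1883 TPM in mock libraries.

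Of 31 genes that carry the signal to talin or hold the integrin back, 28 were tested and 0 were called (median 0.01, 12 of 28 below 0, edgeR). Coro1a, an actin-binding coronin, stood at 854 TPM in exRNaseA and 867 in mock libraries, Flna, the filamin that competes with talin for the β tail, at 610 and 569 TPM, and the adaptor Fyb (ADAP) at 328 and 318 TPM. By edgeR on counts the log2 change was -0.03 for Coro1a, 0.03 for Flna and -0.01 for Fyb. Rassf5, the Rap1 effector RAPL, had the smallest p, at 140.5 TPM in exRNaseA and 144.1 in mock libraries (log2 change -0.07, edgeR adjusted p = 0.700). The paralogs Tln2, Fermt1 and Fermt2 were not tested, and reached at most 0.06, 0.01 and 0.04 TPM in any library, so the talin and kindlin message of these cells was that of Tln1 and Fermt3.

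Of 20 genes of the adhesion complex and its link to actin, 18 were tested and 0 were called (median 0.01, 8 of 18 below 0, edgeR). Vasp stood at 427 TPM in exRNaseA and 427 in mock libraries and Actn1, an α-actinin, at 362 and 349 TPM (edgeR log2 change -0.02 for Vasp and 0.01 for Actn1). Zyx, the focal adhesion protein zyxin, had 321 TPM in exRNaseA and 297 in mock libraries (log2 change 0.09, edgeR adjusted p = 0.548). It passed without exRNaseA replicate 1 (0.11, edgeR adjusted p = 0.0435), in a range of 0.0435 to 1.0 over the alternatives.

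All 30 genes of signalling downstream of the bound integrin were tested and 0 were called (median -0.02, 23 of 30 below 0, edgeR). The ITAM adaptor Tyrobp (DAP12) stood at 1626 TPM in exRNaseA and 1586 in mock libraries and the GTPase Rac2 at 911 and 860 TPM. On counts, edgeR gave a log2 change of -0.01 for Tyrobp and -0.01 for Rac2, below 0 although mean TPM was higher in exRNaseA. The other ITAM adaptor, Fcer1g, had 736 TPM in exRNaseA and 778 in mock libraries (log2 change -0.11, SE 0.04, edgeR adjusted p = 0.609). The change was -0.06 without exRNaseA replicate 1 and -0.07 without mock replicate 1. It was -0.16 without exRNaseA replicate 2 and -0.15 without mock replicate 2.

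Of 31 ligands and surface partners 25 were tested and 0 were called (median -0.02, 17 of 25 below 0, edgeR). Thbs1, the CD47 ligand thrombospondin-1, stood at 1865 TPM in exRNaseA and 1834 in mock libraries, Cd177, a partner of Mac-1 on neutrophils, at 806 and 800 TPM, and Plaur, the urokinase receptor that binds Mac-1, at 601 and 598 TPM. Their edgeR log2 changes on counts were -0.01, -0.02 and -0.03, below 0 although mean TPM was higher in exRNaseA. Bsg, the glycoprotein basigin, had the smallest p of this list (116 TPM in exRNaseA and 119 in mock libraries, log2 change -0.07, edgeR adjusted p = 0.794). The 3 fibrinogen genes, whose product is a ligand of Mac-1, were present in a single library. Fga, Fgb and Fgg had 0 counts in both exRNaseA libraries and in mock replicate 1, and 110, 119 and 78 counts in mock replicate 2. They did not pass the filter, and edgeR called all 3 without the filter and without mock replicate 1.

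The cells carried the defining markers of neutrophils, with S100a9 at 120775 TPM in exRNaseA and 124945 in mock libraries and Ngp at 22112 and 22377 TPM, and 0 of the 14 markers at 0. Markers of other cells were present too, and 0 of them were called. Their summed TPM over 14 monocyte and macrophage genes was 1111 and 1095 in exRNaseA and 1113 and 1093 in mock libraries, of which Ly6c2 held most. It was 287 and 273 in exRNaseA and 274 and 276 in mock libraries for 12 dendritic cell genes, and 94.4 and 98.8 against 98.0 and 95.7 for 14 T and NK cell genes. For 12 B cell genes it was 1990 and 2011 in exRNaseA and 1974 and 2003 in mock libraries. It was 697 and 680 in exRNaseA and 714 and 702 in mock libraries for 12 eosinophil, basophil and mast cell genes, and 41.3 and 46.0 against 42.1 and 46.4 for 10 megakaryocyte and platelet genes. For 10 erythroid genes it was 4864 and 4855 in exRNaseA and 4789 and 4648 in mock libraries. No gene of these lists was at 0 in all 4 libraries. Monocytes, dendritic cells and lymphocytes also express members of this family, Itgal and Itgax among them, and their part in the levels given here was not tested.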

How the data were processed

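Expected counts, TPM and FPKM per gene were deposited for 4 poly(A) RNA-seq libraries. The submitters' processing notes name STAR 2.4.2a, RSEM 1.3.3 and the build mm10. Deposited TPM, FPKM and effective lengths stand beside the expected counts in each RSEM table, as the file headers show. Which annotation release and strand setting the authors used is not given in the sources used here. Deposited small RNA values are RPM, read counts of each sequence scaled to library size, and were whole multiples of 1 read within 0.1 read.

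Expected counts were rounded, filtered with filterByExpr, scaled with TMM and tested with edgeR 4.0.16 (R 4.3.3), with Benjamini-Hochberg adjustment over all 14184 tested genes at 0.05. CPM values use library sizes after the filter and TMM scaling, except in the filter at 10 CPM. Standard errors and 95% intervals came from the quasi-likelihood model. The model was run on data simulated from its own fitted means and dispersions, where it called 36 of 50 genes changed 1.5-fold. Data drawn from the model cannot show whether it suits the real libraries. Alternatives used DESeq2 1.42.0 and limma 3.58.1. Replicate pairs differed by more than sampling noise (chi-square per degree of freedom 2.52 in exRNaseA, 2.28 in mock). The text names the 10 genes, the 3 most abundant genes and the gene with the smallest p of each pathway list, and the 3 genes nearest in level to Itgb2 and Itgam, of which 1 is not reported here. Fga, Fgb, Fgg, Tln2, Fermt1, Fermt2, S100a9, Ngp and Ly6c2 were named after their values were seen. The genes, lists and tests were chosen with earlier results of these data known. Gene coordinates and promoters are those of RefSeq on GRCm38.p6, matched by symbol.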

Additional observations from a re-analysis of the deposited data

Results flagged for a closer look

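Small RNA libraries, which took no part in the comparisons above, held 6 sequences of the genome-mapped class that lie inside 4 of the 10 genes by the mm10 positions of the deposited table. They were picked out because they had reads after capture on wheat germ agglutinin (WGA, a lectin that binds sialic acid and N-acetylglucosamine) above the matching input, with 1 library per group and so no replicate check. Being above the input was usual: of genome-mapped sequences with reads in neutrophil WGA, 80.6% (639 of 793) were higher there than in the input. Among those inside protein-coding genes the share was 85.2% (387 of 454). The table lists mostly sequences with many reads: 16992 of its 18385 had at least 100 reads summed over the 9 libraries. Each of the 6 reached 100 reads in 1 library only and had at most 1 read in any other, so its place in the table rests on the library where it is high, and the values are a description with no test. The highest was a sequence of 31 bases in Itgam (chr7:128117458-128117488, 1003 bases before the end of the RefSeq gene, on the strand of the gene), at 134.6 RPM in the neutrophil WGA library and 0.322 RPM in the neutrophil input. These are 1336 reads and 1 read, and the sequence was at 0 in the 7 HOXB8 libraries. Those 7 were input, biotin-purified and WGA-captured RNA of undifferentiated and of differentiated cells, and biotin-purified, PNGase-digested RNA of differentiated cells. By its level in neutrophil WGA the sequence of 31 bases took place 12 among the 793 genome-mapped sequences with reads there. It took place 8 among the 454 inside protein-coding genes. These places use the same value by which the sequence was picked, and are a description only. A shorter form of 29 bases that ends at the same position stood at 10.4 RPM in neutrophil WGA and 0 in the input. In neutrophil WGA an Itgal sequence of 19 bases stood at 15.4 RPM and an Itgb2 sequence of 18 bases at 11.1 RPM, with 0 in the input for both. In differentiated HOXB8 WGA another Itgam sequence, of 23 bases, stood at 13.2 RPM and a Tln1 sequence of 18 bases at 17.6 RPM, with 0 in the input for both. In undifferentiated HOXB8 cells that Itgam sequence was at 0 after WGA and at 0.267 RPM, or 1 read, in the input. Reads of 18 or 19 bases can match other places in the genome, and the labels give a size cut for the inputs alone, so capture and size selection cannot be told apart.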

How the results depend on the processing

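Of the alternatives, DESeq2 and total count or upper quartile scaling gave 9 or 13 called genes. The count was 149 without a filter, 7 at 10 CPM in 2 libraries, 8 and 7 with limma on log2(TPM + 0.1) and log2(TPM + 1), and 9 to 74 with 1 library left out. Of the 10 genes 1, Cd47, was called without a filter and 0 to 1 with 1 library left out, and 0 in every other alternative. Among the pathway lists 3 genes, Fga, Fgb and Fgg, were called without a filter, and 0 to 3 with 1 library left out. The median log2 change of the 10 genes was -0.000173 with total count scaling, 0.0135 with limma at either pseudocount, and -0.0203 to -0.0068 with 1 library left out. Signs turned for Itgal (0.00259 with total count scaling, 0.0157 and 0.0156 with limma at 0.1 and 1) and, with limma at 0.1 and 1, for Itgax (0.0619 and 0.0561), Itgb2 (0.0135 and 0.0135), Tln1 (-0.000556 and -0.000545) and Rap1b (0.00702 and 0.00700). With 1 library left out Tln1 ranged from -0.00584 to 0.0375. The median of all genes was -0.00 in the edgeR fit reported, 0.02 with total count scaling and 0.03 with limma at either pseudocount. In CPM in place of TPM, Itgam held 82.7% of the α chains in exRNaseA and 83.0% in mock libraries, and the α to Itgb2 ratio was 1.91 and 1.94, since counts are not divided by length. With 1 library left out the Itgam share was 83.5% to 83.8% in exRNaseA and 83.7% to 84.1% in mock libraries. With the replicate number as a block edgeR called 55 genes, 0 of the 10 and 0 of the lists. Deviations of same-numbered libraries had a correlation of -0.03 across all tested genes. Each gene had equal weight whatever its count, so this value does not settle whether the numbers pair the libraries. The labels do not state a pairing. A lone library in a group was assumed to vary like the others. The 2 libraries per group, and for Itgad fewer than 40 counts per library, limit what could be seen.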
